A study of Brassica rapa with 23 samples.

Results

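The 150 most abundant leaf transcripts of water-treated Chinese cabbage (*Brassica rapa* subsp. *pekinensis*) were the genes with the highest mean expression over all 11 water libraries of the series. They make up 0.366% of the 41020 genes in the tables. Expression is given in TPM, a transcript abundance per gene that is corrected for gene length and scaled to a total of 1000000 in every library. The members were chosen by their measured TPM in water alone, so their levels in water are a description and were not tested. Leaf discs from the 1st true leaf of 17-day-old wild-type plants of cultivar Norang, grown in soil at 10 h light and 14 h dark, were treated with water, with 100 μg/ml chitin from shrimp shells or with 100 nM flg22. Discs were sampled after 30 or 180 min. There were 5 water libraries at 30 min, 6 at 180 min, and 3 for each of chitin and flg22 at each time, 23 in all. Each replicate was a pool of discs, and no mutant or transgene was involved.

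Chitin, a polymer of fungal cell walls, and flg22, a peptide from bacterial flagellin, are microbe-associated molecular patterns (MAMPs). In plants they are perceived by receptors at the cell surface, which set off a rapid defence response with wide changes in transcript levels. The mRNA of a green leaf is typically dominated by few genes, among which those for photosynthesis, carbon fixation and protein synthesis are usually prominent. The tables hold gene identifiers without names, and the name table used here matched 0 of the 150 members, so no member can be assigned to these roles and each is described by its identifier, position and values. None of the 24 genes that the study names by identifier is a member.

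All 150 members passed the filter for testing (TPM of at least 1 in at least 3 libraries), as did 24500 genes in all. No member was at 0 in any library, and the lowest of all their values was 29.7 TPM, for Bra014401 in a chitin library at 30 min. The aligned sequence behind each library was 4.09 to 5.64 gigabases. The chitin and flg22 libraries of 1 condition are labelled as separate replicates, whereas some water libraries of 1 time share a replicate number. All entered the main fit as separate libraries, and p-values measure the spread between libraries. Water libraries are named here by the replicate number and library number of their titles (1-s3). The study used a water control set for each MAMP, but the labels do not say which water library belongs to which set, so all water libraries of a time served as controls.

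In water, the members held 29.0% of all TPM (mean over 11 libraries, range 25.1% to 34.0%). The median member stood at 1248 TPM, against 9.98 TPM for the median tested gene. Levels were unequal within the 150 as well: 9 members were above 5000 TPM, 35 above 2000 TPM and 100 above 1000 TPM. The 10 highest members held 26.8% of the members' TPM. At the lower edge the values were close, with Bra031624 at rank 150 (793.7 TPM) and Bra037480 just outside (786.2 TPM).

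The first member, Bra028181 (A04:6777899-6778777, minus strand, B. rapa v1.5), had a mean of 13547 TPM ± 5300.4 (SD, n = 11) in water. The second, Bra028174 (A04:6734454-6735267, plus strand), had 12171 TPM ± 4279. The pair lies on the same chromosome, and its levels moved together: the ratio of the second to the first was between 0.848 and 0.989 in all 23 libraries. Whether reads were shared between them during quantification was not tested. Bra000775 on A03 followed at 9583 TPM ± 1831, Bra040764 on an unplaced scaffold at 8228 TPM ± 815, and Bra001086 on A03 at 6656 TPM ± 3457. The other members of the first 10 were Bra013176, Bra017055, Bra039597, Bra013863 and Bra029456, with means from 6649 down to 4840 TPM. The SDs of most neighbours in this order are larger than the gaps between their means, so the order within the first 10 is loose.

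Neighbouring ranks also differed in how steady they were. The coefficient of variation (SD relative to the mean) over the 11 water libraries had a median of 33.5% in the members and 24.0% in the tested genes with a level above 0 in water. It was under 10% in 4 members and over 50% in 30. The steadiest member was Bra037639, at 1000.2 to 1313 TPM in the 5 water libraries at 30 min and 1023 to 1172 TPM in the 6 at 180 min (8.02%). The least steady was Bra011636, which ranged from 56.7 TPM in 3-s21 to 3668 TPM in 3-s19 (102%). The place of Bra011636 among the members therefore rests on few libraries.

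The members' gene models were short. The median genomic span was 1108.5 bp, against 1719 bp in the tested genes. Members were spread over all 10 chromosomes, with 29 on A09 (19.3%, against 14.2% of tested genes) and 4 on A06 (2.67%, against 10.3%). There were 4 pairs of members within 3 genes of each other, such as Bra030182 and Bra030181 on A07, with 3106 bp between them. Only 1 member overlapped another gene model.

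A group of 4 water libraries stood apart. Bra028181 was at 16165 to 23619.8 TPM in 2-s13, 3-s21, 2-s15 and 3-s23 and at 7627 to 13017 TPM in the other 7. The same 4 libraries had the highest share of TPM in the members, 30.6% to 34.0%, against 25.1% to 28.5%. Within replicates 2 and 3, each is the water library with the higher library number of its time, whereas neither of the pair in replicate 1 at 180 min (1-s3 and 1-s7) stood apart. At 30 min the chitin and flg22 libraries were divided in a like way: in replicate 1, Bra028181 was at 13926 TPM with chitin and 12863 TPM with flg22, whereas in replicates 2 and 3 it was at 16602 and 20825 TPM with chitin and at 6231 and 7138 TPM with flg22. In the numbering of the titles, each of the 4 comes just before a chitin library of replicate 2 or 3, and the other water libraries of these replicates come just before flg22 libraries. The labels do not say that this order gives the control sets. Each comparison is therefore also given with the water libraries split in this way, called title-number sets: 1-s1, 2-s13 and 3-s21 (30 min) and 1-s7, 2-s15 and 3-s23 (180 min) for chitin, and 1-s1, 2-s9 and 3-s17 (30 min) and 1-s3, 2-s11 and 3-s19 (180 min) for flg22. The library 1-s1 is the single water library of its replicate and time and serves both.

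The members' mean share of TPM was lower after both MAMPs than in water, and lowest with flg22. At 30 min it was 28.1%, 26.1%, 30.6%, 25.1% and 32.3% in the 5 water libraries, with a mean of 28.4% ± 3.00 (SD, n = 5). With chitin it was 21.9%, 25.04% and 27.0% (24.6% ± 2.57, n = 3), which overlaps the water range in 1 of 3 libraries. With flg22 it was 20.7%, 17.9% and 17.6% (18.7% ± 1.71, n = 3), below every water library. At 180 min the 6 water libraries had a lowest share of 25.7%, a median of 28.5% and a highest of 34.0% (29.6% ± 3.02, n = 6). Chitin gave 19.1%, 20.9% and 24.1% (21.4% ± 2.50, n = 3) and flg22 gave 19.5%, 18.4% and 20.3% (19.4% ± 0.962, n = 3). All 6 treated libraries at 180 min were below all 11 water libraries of both times. Against the water library of the same replicate in the title-number sets, the share differed by -6.18, -5.53 and -5.30 percentage points with chitin and by -7.37, -8.20 and -7.53 with flg22 at 30 min. At 180 min it differed by -9.36, -11.4 and -9.93 points with chitin and by -9.03, -9.94 and -5.37 with flg22. Since the members were chosen for high values in water, their share in water is high by construction and no p is given for it. TPM also sums to a fixed total, so a lower share in these genes is matched by a higher share elsewhere.

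**Figure D1:**
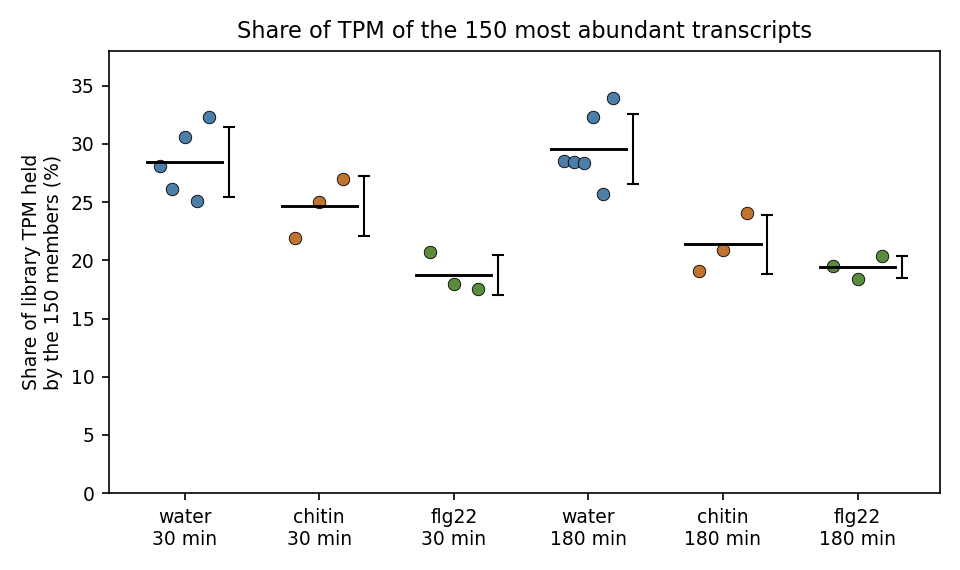
Share of each library's TPM held by the 150 members (y axis, percent), by condition (x axis). Points are libraries, horizontal lines are condition means and the bars beside them are ± 1 SD. All flg22 libraries lie at 17.6% to 20.7%, below the lowest water library at 25.1%.

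The genes at the top of the ranking also changed. Ranked by condition mean, 134 of the members were among the first 150 genes in water at 30 min and 136 in water at 180 min. With chitin the number was 100 at 30 min and 80 at 180 min, and with flg22 it was 62 and 74. The numbers in water are high by construction, since the members were ranked on those libraries. In single libraries the number was 110 to 133 in water. It was 78 to 103 with chitin and 57 to 64 with flg22 at 30 min, and 61 to 96 and 69 to 77 at 180 min. Each library's own first 150 genes, whichever they were, held 24.9% to 30.1% of TPM in the treated libraries and 26.5% to 34.7% in the water libraries. The first gene was still Bra028181 with both MAMPs at 30 min. At 180 min it was Bra018543 with both, a member that had ranked 24th in water. The highest genes to enter from outside were Bra000884 at 30 min (rank 22 with chitin, 12 with flg22) and Bra027286 at 180 min (rank 10 with chitin, 4 with flg22).

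For single genes, a differentially expressed gene (DEG) is one with at least a 2-fold difference and an adjusted p under 0.05 (Benjamini-Hochberg) in limma on log2(TPM + 1), fitted over all 24500 tested genes and 23 libraries. On this scale the median of all tested genes was itself below water at 30 min, by -0.46 with chitin and -0.47 with flg22, and closer to it at 180 min (-0.09 with chitin, 0.09 with flg22). After rescaling of the libraries to a common median ratio these all-gene medians at 30 min were -0.04 and -0.05. Members' medians are therefore also given relative to that of all tested genes.

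**Figure D2:**
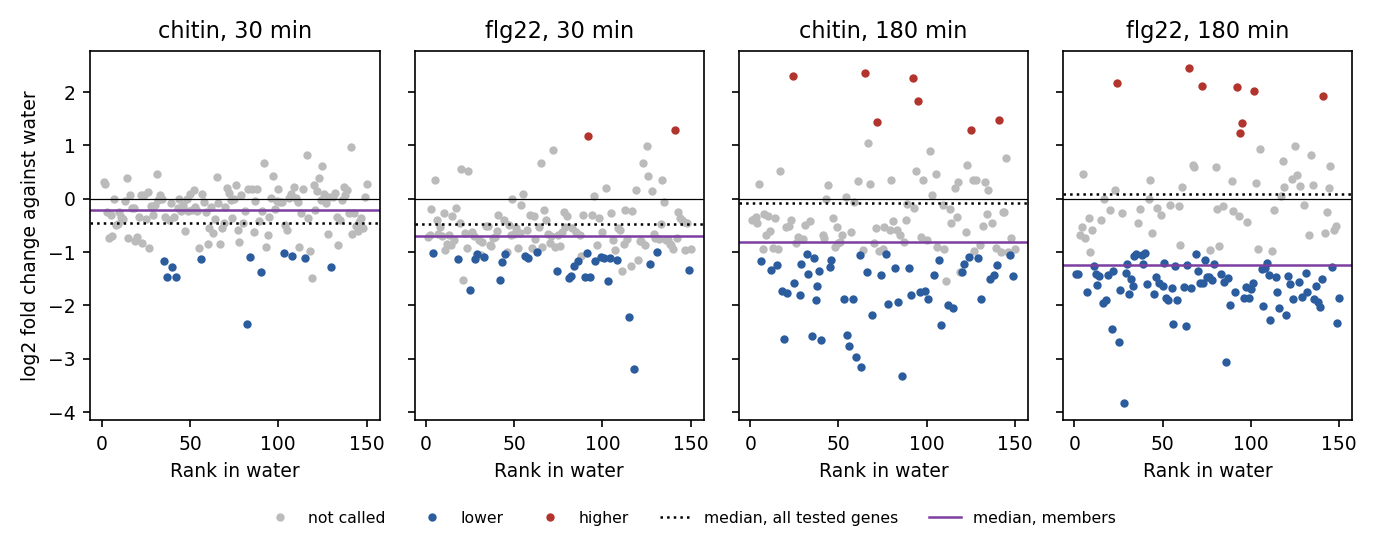
Fitted log2 fold change against water of each member (y axis) by its rank in water (x axis) for chitin and flg22 at 30 and 180 min. Red and blue points are members called higher or lower, grey points are not called, the dotted line is the median of all tested genes and the violet line that of the members. At 180 min the members' median, -0.81 with chitin and -1.24 with flg22, lies below that of all tested genes.

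Chitin at 30 min changed few of the most abundant transcripts. Of the 150 members 12 were downregulated (8.00%, against 10.1% of all tested genes) and 0 were upregulated (against 8.13%), also at 2-fold and an unadjusted p under 0.05. The median member was at -0.21 on the log2 scale, 0.24 above the median of all tested genes. With an adjusted p alone, 2 members were higher and 28 lower, against 11.8% and 52.2% of tested genes. All chitin libraries were below all water libraries of both times in 18 members (12.0%, against 34.0%). No member among the first 10 was a DEG.

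Among the downregulated members whose chitin and water libraries did not overlap at 30 min, the largest falls were in Bra009384 and Bra040749. Bra009384 (A10:14050370-14051263) was at 1767, 2284, 1667, 2048 and 1236 TPM in water and at 529, 826 and 604 TPM with chitin, with no overlap (log2 fold change -1.46, SE 0.24, adjusted p = 3.83e-05). Bra040749, on an unplaced scaffold, was at 1194, 1088, 775, 925 and 604 TPM in water and at 354, 412 and 276 TPM with chitin (-1.38, SE 0.22, adjusted p = 2.52e-05). Both were also downregulated by flg22 at 30 min, to 391, 695 and 862 TPM for Bra009384 (-1.51, SE 0.24) and to 268, 319 and 387 TPM for Bra040749 (-1.47, SE 0.22).

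The count for chitin at 30 min depends on the scaling and on the water libraries. With median-ratio scaling, 1 member was downregulated and 3 were upregulated (against 3.52% and 11.2% of tested genes). Bra009384 was then at -0.95 and Bra040749 at -0.87, both still past the adjusted p but under 2-fold. With the title-number sets, 6 were downregulated (4.00%, against 8.69% of tested genes) and 3 upregulated (2.00%, against 8.82%), and the offset of the median was 0.05. With the converse choice, 1-s1, 2-s9 and 3-s17, 22 were downregulated (14.7%, against 15.7%) and 1 was upregulated (0.667%, against 7.59%).

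With flg22 at 30 min the members lay lower. There were 31 downregulated members (20.7%, against 15.6% of all tested genes) and 2 upregulated ones (1.33%, against 9.57%). The median member was at -0.71, an offset of -0.24 from that of all tested genes. This offset was between -0.54 and 0.19 in the single flg22 libraries, so it was within their spread. With an adjusted p alone, 5 members were higher (3.33%, against 13.4%) and 75 lower (50%, against 53.3%). Every flg22 library was below all 11 water libraries in 28 members (18.7%, against 32.3%).

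Bra011656 (A01:1234348-1234827) had the largest fall, from 1071, 805, 868, 471 and 712 TPM in water to 222, 69.5 and 35.8 TPM with flg22 (-3.19, SE 0.43, adjusted p = 2.5e-06). Its level was above the water range at 180 min, with 1616, 1552 and 1823 TPM in the flg22 libraries and 605 to 1471 TPM in the water libraries. Bra015639 (A07:24898197-24898945) fell from 1016, 753, 1201, 944 and 977 TPM to 297, 156 and 189 TPM (-2.22, SE 0.34, adjusted p = 1.04e-05). Bra015639 was 1 of 3 members downregulated in all 4 comparisons with water (2%, against 0.959% of tested genes). With the title-number sets, 1 member was downregulated in all 4 (0.667%, against 1.02%). Bra035067 (A07:25297799-25299440) rose, from 734, 1066, 380.4, 1455 and 414 TPM in water to 1839.8, 1628 and 1753 TPM with flg22 (1.29, SE 0.40, adjusted p = 0.00773). The rise of Bra035067 was 0.73 and no longer passed the test with the water libraries 1-s1, 2-s9 and 3-s17 alone.

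Single libraries carried much of the count for flg22 at 30 min. Without the flg22 library of replicate 1 it was 47 downregulated members (31.3%, against 14.6% of tested genes), and without that of replicate 3 it was 18 (12.0%, against 17.6%). Without the water libraries 2-s13 or 3-s21 it was 18 or 20 (12.0% or 13.3%, against 15.1% or 16.1%). With the title-number sets, 17 were downregulated (11.3%, against 16.7%) and 0 upregulated (against 8.79%), and the offset of the median was 0.01. The choice of 1-s1, 2-s13 and 3-s21 gave 62 downregulated members (41.3%, against 16.7%). Median-ratio scaling left 4 downregulated and 7 upregulated members (against 6.78% and 12.8% of tested genes).

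At 180 min the most abundant transcripts were reduced more broadly. With chitin 54 members were downregulated (36.0%, against 12.9% of all tested genes) and 7 were upregulated (4.67%, against 9.58%). The median member was at -0.81, an offset of -0.72 from that of all tested genes, and the offset was between -1.19 and -0.37 in the single chitin libraries. With an adjusted p alone, 8 members were higher (5.33%, against 21.9%) and 80 lower (53.3%, against 31%). The 54 downregulated members held 9.73% of TPM in water and 3.31% with chitin, and the 7 upregulated ones 0.863% and 3.29%. Among the first 10 members only Bra013176 was downregulated, against 18 of 40 at ranks 11 to 50.

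Bra005099 (A05:3413125-3413749) had the largest fall. Its level was 596 TPM at the lowest, 1107 TPM at the median and 1804 TPM at the highest of 6 water libraries, and 48.3, 136 and 185 TPM with chitin (-3.31, SE 0.42, adjusted p = 2.11e-06). Bra032150 (A04:10909788-10911293) went from 1141, 1384 and 2390.3 TPM in water (lowest, median, highest) to 138, 161 and 217 TPM (-3.15, SE 0.33, adjusted p = 1.91e-07). In both genes the treated and water libraries were far from overlapping.

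Bra021101 and Bra018543 rose the most. Bra021101 (A01:23136857-23137687) was at 678, 1074 and 1529 TPM in water (lowest, median, highest) and at 6337, 5519 and 4416 TPM with chitin (2.35, SE 0.30, adjusted p = 1.98e-06). Bra018543 (A02:15817718-15818542) was at 1453, 2572 and 3308 TPM in water and at 14146, 11979 and 9558 TPM with chitin (2.30, SE 0.32, adjusted p = 5.57e-06). At 30 min neither was a DEG with either MAMP, with fitted differences between 0.07 and 0.67.

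At 180 min the chitin library of replicate 1 had the lowest members' share, and without it 34 members were downregulated (22.7%, against 10.4% of tested genes). Without the library of replicate 3 there were 73 (48.7%, against 15.3%). With the title-number sets, 75 were downregulated (50%, against 12.6%) and 8 upregulated (5.33%, against 10.9%), and the offset of the median was -0.995. With none of the water libraries that stood apart, 41 or 42 were downregulated (27.3% or 28%, against 11.6% or 13.7%), depending on which of 1-s3 and 1-s7 was taken. Every chitin library was below all 11 water libraries in 36 members (24.0%), close to the 22.4% of all tested genes.

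With flg22 at 180 min, 86 members were downregulated (57.3%, against 7.73% of all tested genes) and 8 were upregulated (5.33%, against 7.44%). The median member was at -1.24, an offset of -1.33 from that of all tested genes, and the offset was between -1.39 and -1.17 in the single flg22 libraries. With an adjusted p alone, 12 members were higher (8.00%, against 23.2%) and 97 lower (64.7%, against 19.3%). Every flg22 library was below all 11 water libraries in 80 members (53.3%, against 15.6%). The 86 downregulated members held 16.6% of TPM in water and 5.46% with flg22, whereas the 56 not called held 11.9% and 10.1%. The downregulated members came from all ranks: 3 of the first 10, 27 of 40 at ranks 11 to 50, 30 of 50 at ranks 51 to 100 and 26 of the last 50.

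Bra028181 and Bra028174, the first members in water, were both among them. Bra028181 was at 7627, 11406 and 18960.4 TPM in water (lowest, median, highest) and at 4879, 3646 and 5041 TPM with flg22 (-1.41, SE 0.36, adjusted p = 0.00383). Bra028174 was at 7035, 10609.8 and 16373 TPM in water and at 4495, 3453 and 4705 TPM with flg22 (-1.40, SE 0.34, adjusted p = 0.00266). Bra017055, at rank 7, fell from 3604, 4867 and 7003 TPM to 1439, 1311 and 1822 TPM (-1.75, SE 0.26, adjusted p = 3.02e-05). In contrast, Bra001086 at rank 5 was at 7843, 8029 and 7578 TPM with flg22, inside its water range of 1774 to 13018 TPM.

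The largest fall with flg22 at 180 min was in Bra036642 (A09:6324941-6325767), from 675, 2850.0 and 4264 TPM in water (lowest, median, highest) to 246, 209 and 93.2 TPM (-3.83, SE 0.45, adjusted p = 2.92e-06). Its lowest water value came from 3-s19, with the other 5 at 2695 TPM or more. Bra005099 fell to 113, 128 and 145 TPM (-3.06, SE 0.42, adjusted p = 1.37e-05). Bra021101 rose to 6738, 6114 and 4664 TPM (2.46, SE 0.30, adjusted p = 3.7e-06) and Bra018543 to 11408, 10555 and 10191 TPM (2.16, SE 0.32, adjusted p = 2.61e-05). When any 1 library was left out, 75 to 86 members were downregulated (50% to 57.3%, against 6.76% to 8.27% of tested genes). Without the water libraries that stood apart, 65 or 72 were (43.3% or 48.0%, against 6.11% or 7.40%). With the title-number sets, 74 were downregulated (49.3%, against 7.54%), next to 75 with chitin, and 5 were upregulated (3.33%, against 5.91%). The offset of the median was then -1.10, next to -0.995 with chitin.

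**Figure D3:**
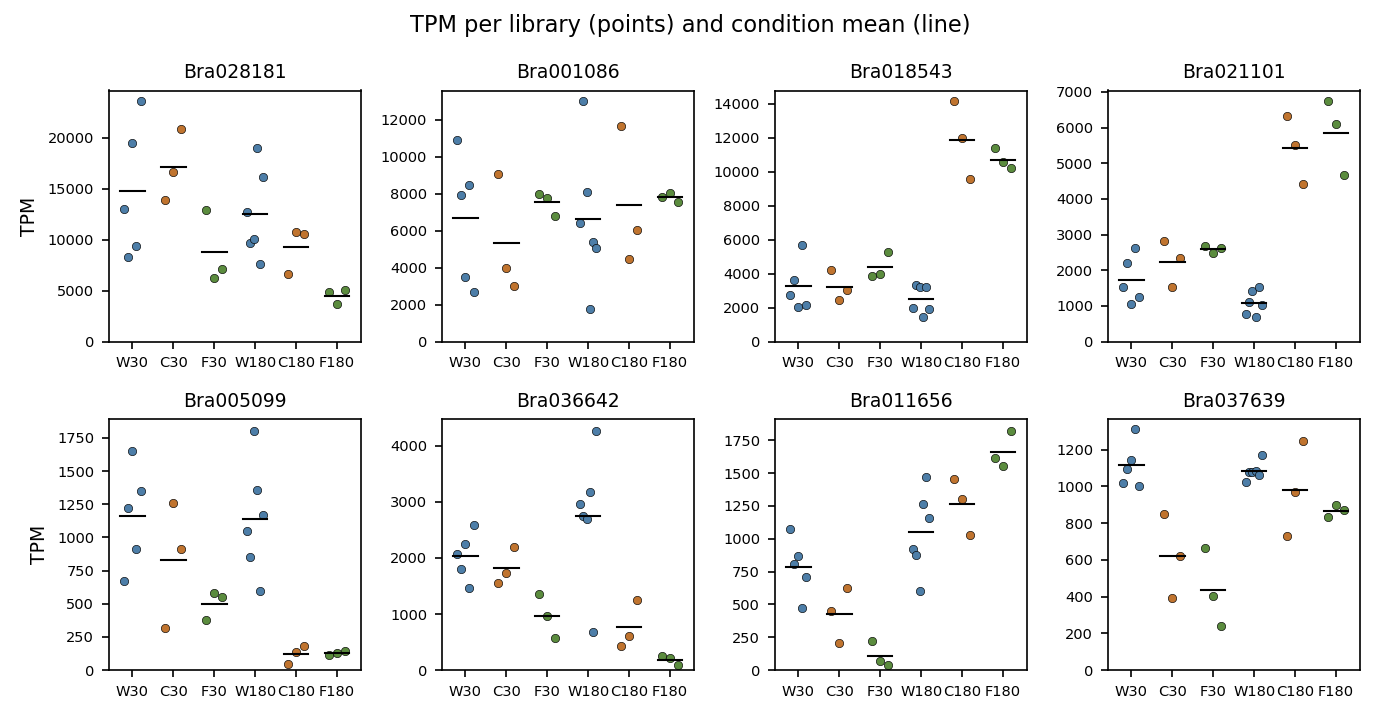
TPM (y axis, from 0) of 8 members in every library, by condition (x axis: W, water; C, chitin; F, flg22; with the time in min). Points are libraries and lines are condition means. Bra018543 and Bra021101 are highest in the chitin and flg22 libraries at 180 min, and Bra005099 is at 48.3 to 185 TPM in the same libraries.

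Both comparisons at 180 min use the same water libraries, so their calls are set side by side without a test of their overlap. There were 42 members downregulated by both MAMPs (28%, against 6.01% of tested genes), 12 called only with chitin (8.00%, against 6.89%) and 44 called only with flg22 (29.3%, against 1.72%). With the title-number sets these numbers were 57, 18 and 17 (38%, 12.0% and 11.3%, against 6.34%, 6.30% and 1.2%). Of the upregulated members, 6 were called with both (4.00%, against 5.62%), 1 with chitin only (0.667%, against 3.95%) and 2 with flg22 only (1.33%, against 1.82%). Over both times, 35 members were DEGs in none of the 4 comparisons (23.3%, against 58.7%), and 0 were upregulated in one and downregulated in another (against 0.922%).

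**Figure D4:**
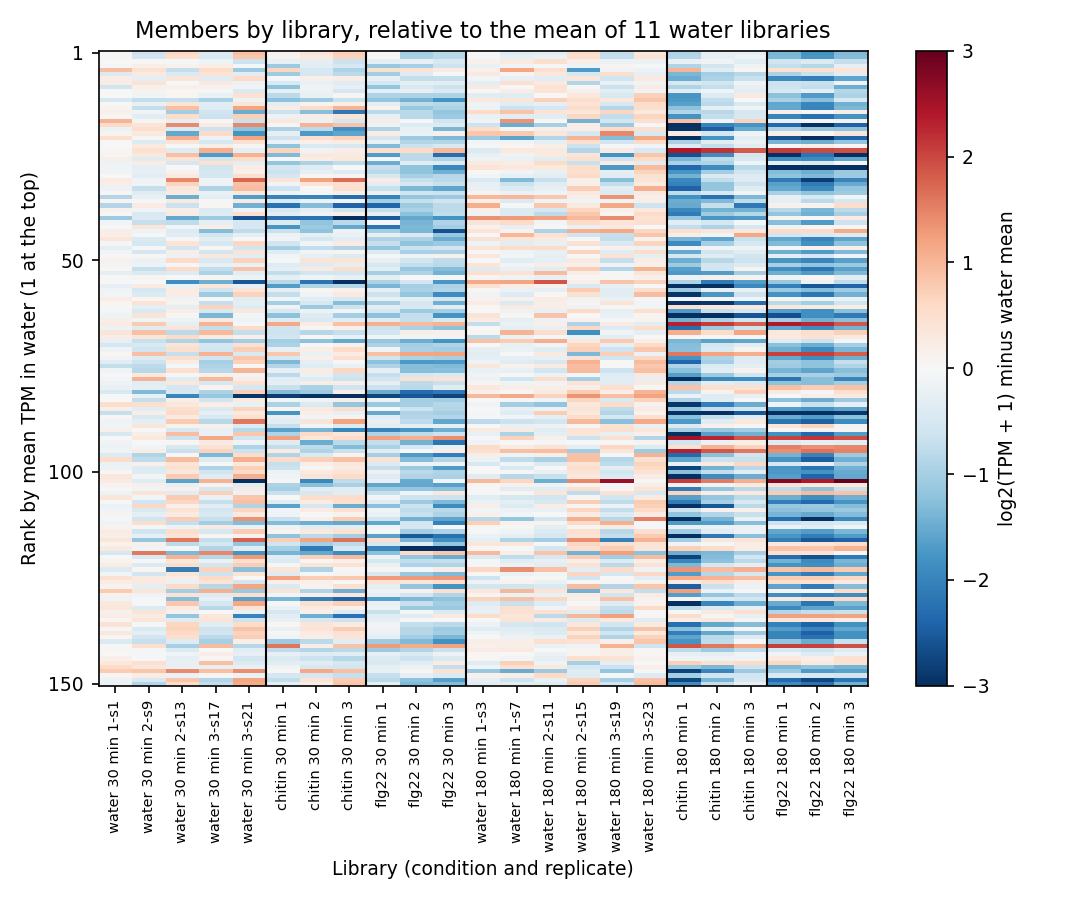
Heat map of the 150 members (rows, by rank in water) in the 23 libraries (columns, by condition), as log2(TPM + 1) minus the mean of the 11 water libraries. Red is above and blue below that mean, with colours capped at 3. The blue area is broadest in the flg22 libraries at 180 min, where 86 members were downregulated.

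The rule that chose the members gives their water values an upward bias, since a gene with a chance high value in water is more likely to be ranked. The comparisons were therefore repeated with the 150 genes ranked only on the water libraries of the other time, which serve as no control in that comparison. Of these sets, 136 genes at 30 min and 134 at 180 min were members. A deviation shared by water libraries of both times, as in those that stood apart, is not removed in this way. At 30 min, 15 genes were downregulated with chitin (10.0%, against 10.1% of tested genes) and 30 with flg22 (20.0%, against 15.6%). At 180 min the counts were 56 (37.3%, against 12.9%) and 90 (60.0%, against 7.73%). Upregulated were 2 and 4 at 30 min (1.33% and 2.67%, against 8.13% and 9.57%). At 180 min 9 and 8 were upregulated (6.00% and 5.33%, against 9.58% and 7.44%).

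The response at 180 min was tested against that at 30 min in the same model. For chitin, 25 members had a lower response at 180 min (16.7%, against 8.98% of all tested genes) and 9 a higher one (6.00%, against 14.1%). For flg22, 13 had a lower response (8.67%, against 8.16%) and 12 a higher one (8.00%, against 20.8%). The median member's difference between times had an offset of -0.97 for chitin and -0.96 for flg22 from that of all tested genes. Bra011656 had the largest difference, 3.90 for flg22 (SE 0.60, adjusted p = 2.37e-05). Scaling matters here, since the 30 min responses carry the shift of the all-gene median: with median-ratio scaling 54 members had a lower and 4 a higher response to chitin (36.0% and 2.67%, against 14.5% and 6.05% of tested genes), and 41 a lower and 3 a higher response to flg22 (27.3% and 2.00%, against 13.9% and 7.03%). With the title-number sets, 21 had a lower and 7 a higher response to chitin (14.0% and 4.67%, against 7.99% and 12.8%), and 17 a lower and 16 a higher response to flg22 (11.3% and 10.7%, against 8.23% and 22.6%). The offsets were then -0.96 for both. Single libraries moved these counts too. Members with a lower response to chitin numbered 47 without the water library 3-s21, 39 without chitin replicate 1 at 30 min, and 14 or 48 without chitin replicate 1 or 3 at 180 min, where 7.13% to 10.3% of tested genes were lower. Those with a higher response numbered 5 without chitin replicate 2 at 30 min (3.33%, against 13.2% of tested genes). Members with a lower response to flg22 numbered 8 or 21 without the water libraries 3-s17 or 3-s21, 7 or 20 without flg22 replicate 1 or 3 at 30 min, and 8 without flg22 replicate 2 at 180 min, where 7.76% to 8.71% of tested genes were lower.

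In a direct comparison of chitin with flg22, no water value enters the difference itself, although the spread was estimated over all 23 libraries, water included. A difference between the title-number sets, as in Bra028181, is not removed from it. At 30 min, 1 member was a DEG, Bra011656, which was higher with chitin (0.667%, against 0.282% of tested genes), and 0 were lower (against 0.527%). Its values were 447, 204 and 623 TPM with chitin and 222, 69.5 and 35.8 TPM with flg22, so that the groups overlapped (2.21, SE 0.48, adjusted p = 0.0234). It was no longer a DEG without chitin replicate 3 or without flg22 replicate 2 or 3. It was also no DEG when only the 6 libraries compared were fitted, which gave 0 DEGs among all tested genes. The count was 22 higher (14.7%, against 1.85%) and 2 lower (1.33%, against 1.66%) at 2-fold and an unadjusted p under 0.05. In all, 58 members were higher in all chitin libraries than in all flg22 libraries (38.7%, against 9.84%) and 7 were lower (4.67%, against 6.75%). The median member was 0.53 higher with chitin, and that of all tested genes was at -0.00. When each MAMP was taken against its title-number set, the offset of the median was 0.04, and 0 members were DEGs in either direction (against 0.0449% and 0.0653%).

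At 180 min, 3 members were higher with chitin than with flg22 (2.00%, against 1.97% of tested genes) and 7 were lower (4.67%, against 2.88%). With an adjusted p alone, 4 were higher (2.67%, against 3.73%) and 7 lower (4.67%, against 9.43%). All chitin libraries were above all flg22 libraries in 32 members (21.3%, against 12.2%) and below them in 31 (20.7%, against 32.1%). When only the 6 libraries compared were fitted, 7 were higher (4.67%, against 2.49%) and 10 lower (6.67%, against 3.40%). Against the title-number sets, 0 were DEGs in either direction (against 0.143% and 0.0980%), and the offset of the median was 0.09. Bra036642 was higher, at 434, 611 and 1255 TPM with chitin and 246, 209 and 93.2 TPM with flg22 (2.03, SE 0.52, adjusted p = 0.0149). Bra040817, on an unplaced scaffold, was also higher, at 490.1, 613 and 701 TPM against 215, 278 and 271 TPM (1.23, SE 0.35, adjusted p = 0.024). Neither call held without chitin replicate 3 or without flg22 replicate 3, and that of Bra040817 was also lost without chitin replicate 2 or flg22 replicate 1. The count of members higher with chitin was 8 without chitin replicate 1 (5.33%, against 1.87% of tested genes) and 0 without chitin replicate 3 (against 1.76%). It was 2 without flg22 replicate 2 (1.33%, against 1.56%). Without chitin replicate 2 or flg22 replicate 1 or 3 it was 1 (0.667%, against 1.17% to 1.75%). The count of members lower with chitin was 4 without flg22 replicate 3 (2.67%, against 1.76%).

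Bra032937 and Bra023102 were lower with chitin. Bra032937 (A02:21684584-21685852) was at 119, 182 and 287 TPM with chitin and 795, 686 and 923 TPM with flg22 (-2.11, SE 0.32, adjusted p = 0.000536). Bra023102 (A03:8711706-8712834) was at 145, 262 and 389 TPM with chitin and 1003, 685 and 919 TPM with flg22 (-1.80, SE 0.40, adjusted p = 0.00598). Both calls held when any 1 library was left out. Against the title-number sets, neither passed, with Bra032937 at -1.69 (adjusted p = 0.116 in limma) and Bra023102 at -1.86 (adjusted p = 0.16). The flg22 level of Bra023102 was within its water range at 180 min, 478 to 1614 TPM.

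**Figure D5:**
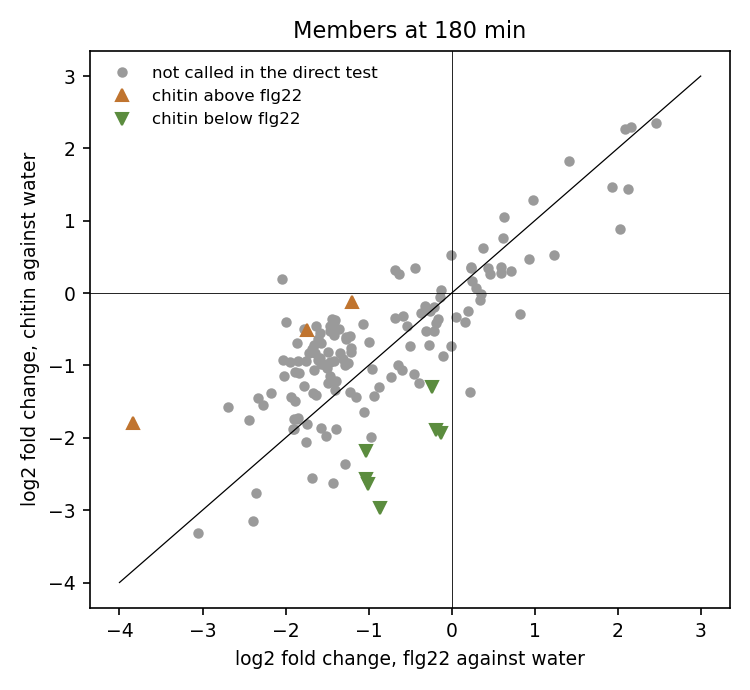
Fitted log2 fold changes of the 150 members at 180 min, for chitin (y axis) and flg22 (x axis), each against the same 6 water libraries, with the line of equal change. Upward triangles mark the 3 members called higher and downward triangles the 7 called lower with chitin than with flg22. Most members lie below 0 with both MAMPs.

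All possible divisions of the water libraries into 2 sets of 1 library per replicate number were also taken. At 30 min (4 divisions) the members higher with chitin ranged from 0 to 49 (32.7%, against 4.23% of tested genes). Those lower ranged from 0 to 9 (6.00%, against 4.74%). At 180 min (8 divisions) they ranged from 0 to 17 (11.3%, against 1.73%) and from 0 to 7 (4.67%, against 5.53%). The calls of Bra036642, Bra040817, Bra032937 and Bra023102 at 180 min were each lost in at least 1 of them, and all 4 were lost with the title-number sets.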

How the data were processed

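The authors used Trimmomatic 0.36, HISAT2 (genome build: B. rapa chromosome v1.5) and StringTie 2.0. The deposited tables hold TPM, FPKM and coverage (a signal per base) for each gene. Read counts were not analysed here. FPKM served as an alternative and coverage only for the aligned bases.

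limma 3.58.1 (R 4.3.3) with a mean-variance trend was fitted to log2(TPM + 1) with 1 coefficient per condition and Benjamini-Hochberg adjustment over 24500 genes. The pseudocount understates changes of low genes. The script was tested on simulated data. Members and lists were chosen with earlier results of these data known. Named genes were the first 10, the largest changes per comparison among DEGs with no overlap between groups (2 of the 3 per direction that the rule allows, since the identifiers carry no names), the edges of the list and the steadiest and least steady members. Lists by gene product and leaf markers could not be applied, because the RefSeq table (assembly CAAS_Brap_v3.01) matched 1 of the 41020 identifiers.

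The main fit held no term for the replicate number, so its p-values are unpaired, and a replicate block was an alternative only. Water libraries that share a replicate number entered the main fit as separate libraries. It was checked whether same-numbered libraries deviated together (all correlations above 0.1). Against water this was so with chitin at both times (0.306 to 0.468, then 0.15 to 0.504) and with flg22 at 30 min only (0.239 to 0.427; -0.0469 to 0.182 after 180 min). Between the MAMPs it was not so. Identical values made up at most 0.00339% in any of 253 library pairs.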

Additional observations from a re-analysis of the deposited data

Results flagged for a closer look

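In the water libraries at 180 min, Bra040749 was low in 1 library, 2-s11, at 843 TPM, with the other 5 at 1272 to 1512 TPM. Bra035067 was high in 1 library, 3-s19, at 1545 TPM, with the other 5 at 495 to 855 TPM. These are 2 of 62 groups of values checked, and chance flags about 1 in 20.

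The response to a MAMP differed between the times in several members, by the test of the difference itself. For chitin 9 members had a higher response at 180 min than at 30 min (6.00%, against 14.1% of tested genes). A lower one was found in 25 (16.7%, against 8.98%). For flg22 the counts were 12 (8.00%, against 20.8%) and 13 (8.67%, against 8.16%). For chitin the difference, 180 min minus 30 min on the log2 scale, was 1.94 for Bra021101, 2.23 for Bra018543, -2.69 for Bra005099, -2.51 for Bra032150, -1.66 for Bra036642 and -2.13 for Bra032937. For flg22 it was 1.79 for Bra021101, 1.65 for Bra018543, -1.88 for Bra005099, -1.39 for Bra032150, -2.70 for Bra036642 and -1.08 for Bra017055. Among named members that had fallen at 30 min, it was positive for flg22 in some: 3.90 for Bra011656, 1.51 for Bra009384, 1.23 for Bra040749 and 1.15 for Bra037639. Some were named for that fall, and the same values enter the difference. The median difference of all tested genes was itself 0.48. In all, 20 members were downregulated by flg22 at both times (13.3%, against 2.73% of tested genes). With the title-number sets there were 4 (2.67%, against 1.71%).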

How the results depend on the processing

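Values here are the percent of members called, higher then lower, unless stated. In brackets, values that follow against are the percent of all tested genes called. At 30 min, median-ratio scaling gave 2.00 and 0.667 with chitin (against 11.2 and 3.52) and 4.67 and 2.67 with flg22 (against 12.8 and 6.78). For the chitin response at 180 minus 30 min it gave 2.67 and 36.0 (against 6.05 and 14.5). For that to flg22 it gave 2.00 and 27.3 (against 7.03 and 13.9). An adjusted p with no fold threshold gave 1.33 and 18.7 with chitin at 30 min (against 11.8 and 52.2). With flg22 it gave 3.33 and 50 at 30 min (against 13.4 and 53.3) and 8.00 higher at 180 min (against 23.2). Ranked on the other time's water libraries, or by median TPM, 1.33 were higher with chitin (against 8.13) and 2.67 with flg22 (against 9.57) at 30 min. The first ranking put the flg22 share of TPM at 180 min at 18.1%. Over the top 300, 1.33 and 2.67 were higher with chitin and flg22 at 30 min (against 8.13 and 9.57). At 180 min 7.33 and 8.67 were higher (against 9.58 and 7.44). Over the top 50, 0 were higher with flg22 at 30 min (against 9.57) and 2.00 with each MAMP at 180 min (against 9.58 for chitin and 7.44 for flg22). In the chitin response between times 2.00 were higher (against 14.1), and for chitin compared with flg22 at 30 min 0 were (against 0.282).

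The alternatives on the choice of water libraries, the title-number sets and the count beyond all 11 water libraries were added after seeing the data. Over choices of 1 water library per replicate number, chitin at 30 min reached 2.00 higher (against 8.78) and 4.00 to 14.7 lower (against 8.60 to 15.7). For flg22 at 30 min the ranges were 0 to 4.00 (against 8.75 to 10.5) and 11.3 to 41.3 (against 15.6 to 16.7). At 180 min flg22 was as low as 3.33 higher (against 5.15 or 5.71). With own water libraries for each MAMP, chitin against flg22 at 30 min had 0 to 32.7 higher (against 0.0245 to 4.23) and up to 6.00 lower (against 4.74). At 180 min it had 0 to 11.3 higher (against 0.0898 to 2.40) and as few as 0 lower (against 0.0857 or 0.114). In that direct comparison, 2-fold and an unadjusted p gave 14.7 and 1.33 at 30 min (against 1.85 and 1.66) and 9.33 higher at 180 min (against 2.64). A fit of only the conditions compared gave 0 and 4.67 higher at 30 and 180 min (against 0 and 2.49). No filter gave 1.33 higher at 180 min (against 1.32). The title-number sets at 30 min gave 2.00 and 4.00 for chitin (against 8.82 and 8.69) and 0 and 11.3 for flg22 (against 8.79 and 16.7). For flg22 at 180 min they gave 3.33 higher (against 5.91). Chitin compared with flg22 had 0 in both directions at 30 min (against 0.0449 and 0.0653) and at 180 min (against 0.143 and 0.0980). The fit with these sets left 14 residual degrees of freedom, and the main fit 17.

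The replicate block gave 0 and 8.67 (chitin) and 1.33 and 16.7 (flg22) at 30 min, and 4.67 and 36.7 and 5.33 and 57.3 at 180 min. Of all tested genes, 8.04 and 10.0 (chitin) and 9.47 and 15.2 (flg22) were called at 30 min. At 180 min these shares were 9.60 and 12.9 (chitin) and 7.46 and 7.77 (flg22). The largest relative move of a count with the block was chitin above flg22 at 180 min, from 2.00 to 1.33 (against 1.97 and 2.03).

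With any 1 library left out, the ranges for chitin at 30 min were 0 to 0.667 (against 7.49 to 8.60) and 6.00 to 11.3 (against 9.18 to 12.4). For flg22 at 30 min they were 1.33 to 2.67 (against 9.22 to 10.1) and 12.0 to 31.3 (against 14.6 to 17.6). At 180 min they were 4.67 to 5.33 (against 8.82 to 10.2) and 22.7 to 48.7 (against 10.4 to 15.3) for chitin. For flg22 at 180 min they were 4.67 to 6.67 (against 6.65 to 8.16) and 50 to 57.3 (against 6.76 to 8.27). For chitin compared with flg22 they were 0 to 0.667 (against 0.0490 to 0.808) and 0 to 0 (against 0.114 to 1.12) at 30 min. At 180 min they were 0 to 5.33 (against 1.17 to 1.87) and 2.67 to 5.33 (against 1.72 to 3.55). For the chitin response at 180 minus 30 min they were 3.33 to 7.33 (against 11.8 to 16.5) and 9.33 to 32.0 (against 7.13 to 10.3). For that to flg22 they were 6.67 to 11.3 (against 17.3 to 24.0) and 4.67 to 14.0 (against 7.64 to 8.71). Condition means of the share ranged from 27.5% to 29.3%, 23.5% to 26.0% and 17.8% to 19.3% at 30 min, and from 28.7% to 30.3%, 20.0% to 22.5% and 19.0% to 19.9% at 180 min (water, chitin, flg22). No member named for a largest change reversed in the comparison it was named for. The members named for their rank or their steadiness in water were not checked for reversal. Where a value moved, the cause was not tested.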
